A study of Homo sapiens with 4 samples.

Results

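The 38 genes described here make up the transcriptional programme of ATF4, the transcription factor that cells switch on when amino acids run short or the endoplasmic reticulum is stressed, together with the aminoacyl-tRNA synthetases that the programme includes. They were chosen by name, as known genes of this programme, from 62649 gene identifiers, with earlier results of these data known. Grouped by role, 6 act in serine synthesis and mitochondrial one-carbon metabolism, 6 in amino acid transport and 9 in tRNA charging and export. A further 9 belong to the arm around CHOP (the protein of DDIT3), 3 are ATF4 and its C/EBP partners, and 5 are other known targets. All 38 were measured and all 38 passed the filter on low counts.

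RNA was taken from A375, a human melanoma line that carries an activating BRAF mutation. Resistant cells (2 libraries) were A375 cells selected by stepwise, weekly increases of vemurafenib, an inhibitor of mutant BRAF, with 0.1 µM at the start and 6.4 µM at the end. Parental A375 cells served as controls (2 libraries). Both kinds of cell grew in RPMI-1640 with fetal bovine serum. The shared protocol says that cells were harvested after drug treatment and lists sorafenib, pioglitazone and DMSO. The sample titles name vemurafenib only as the drug of resistance. No label of the 4 samples names an agent at harvest, so what was present then is not known. Nor do the labels say whether replicates were separate cultures or whether the resistant cells are 1 clone, so each p-value below is set by differences among 4 libraries that may be technical.

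In cells, kinases that sense uncharged tRNA, misfolded protein, viral RNA or heme deficiency phosphorylate the initiation factor eIF2. Most translation then slows, while the ATF4 message, which carries upstream reading frames, is translated better. ATF4 pairs with C/EBP proteins at a composite DNA element and turns on genes that make, import and charge amino acids. Under lasting stress it also raises CHOP, which turns on TRIB3, CHAC1 and the phosphatase subunit gene PPP1R15A, the last of which restores translation. ATF4 itself is controlled largely at translation, so its mRNA level is an incomplete readout of its activity.

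Counts per library totalled 68022689 and 85197524 in resistant replicates 1 and 2, and 72290468 and 87178097 in control replicates 1 and 2. Each count of control replicate 1 was even, and halving that library moved no member across the threshold. Across 10089 genes with at least 10 counts per 1e6 counts (CPM, the scale of all levels below unless TPM is named) on average, control replicate 2 correlated with the resistant replicates at r = 0.959 and 0.966, and with control replicate 1 at 0.962 (Pearson's r over genes, on log2 levels; genes are not independent). The neural crest markers SOX10 (864 to 968 CPM in resistant cells, 703 to 1148 CPM in controls) and ERBB3 (374 to 417 CPM and 303 to 432 CPM) were abundant, whereas the pigment genes TYR and DCT stayed under 0.3 CPM in each library. Over the 4 libraries PAX3 ranged from 15.7 to 24.1 CPM, S100B from 11.4 to 24.3 CPM, MLANA from 1.12 to 2.33 CPM, PMEL from 1.08 to 2.07 CPM and S100A1 from 1.17 to 1.86 CPM. MITF had 12.3 and 23.4 CPM in resistant cells and 42.2 and 22.8 CPM in controls (edgeR adjusted p = 0.371). Of markers of other skin and blood cells, KRT10 was present (57.7 and 89.0 CPM in resistant cells, 47.5 and 60.1 CPM in controls) and the other 14 stayed under 8 CPM. The keratinocyte marker KRT14 was lower in resistant cells (0.309 and 0.314 CPM, against 1.62 and 2.08 CPM in controls, edgeR adjusted p = 0.0355). The fibroblast marker LUM had 0.366 and 0.145 CPM in resistant cells and 2.18 and 1.43 CPM in controls (edgeR adjusted p = 0.0569). DCN, CDH5 and LYZ also lay below both controls in both resistant libraries, as did 22.2% of all genes tested. None of these markers of other cells lay above both controls in both. The part of these differences in the results was not tested. In bulk RNA, fewer cells of a type and less RNA per cell cannot be told apart.

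In resistant cells 35 of the 38 genes had a fold change above 0 on the log2 scale and 3 below, and the median was 0.38. Of the 24961 genes tested 50.5% were above 0 (48.3% of genes with at least 10 CPM), and their median was 0.01. None of the 38 passed edgeR's quasi-likelihood test after Benjamini-Hochberg adjustment over all genes (threshold 0.05), where 1.09% of all genes passed (0.577% higher, 0.513% lower). NUPR1, DDIT3 and VLDLR had an unadjusted p under 0.05, all with higher values in resistant cells, where 6.14% of all genes were higher and 7.32% lower at that level. DESeq2 called 1 of the 38, NUPR1, higher, against 2.32% of the genes to which it gave an adjusted p. Both resistant libraries lay above both controls for 12 of the 38 genes and below them for none, against 22.4% and 22.2% of all genes tested.

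The 2 controls differed from each other in these genes by more than they differed, on average, from the resistant cells. Control replicate 2 lay above control replicate 1 in 35 of the 38 genes, by a median of 0.75 on the log2 scale, whereas 44.4% of genes with at least 10 CPM did so. Control replicate 1 was the lowest of the 4 libraries in 33 of the 38 genes, against 29.6% of genes with at least 10 CPM. In 33 of the 38 genes the difference between the controls was larger in size than the fold change between resistant cells and controls, against 52.1% of genes with at least 10 CPM. Summed over the 38 genes, levels were 11760 and 14450 CPM in resistant replicates 1 and 2, against 7144 and 13680 CPM in control replicates 1 and 2. Without control replicate 1 the median log2 fold change was 0.05, 22 genes were positive and 1, NUPR1, was called higher, against 1.5% of all genes in that fit. Without control replicate 2 it was 0.84 and 21 genes were called higher, against 4.31% of all genes.

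**Figure D1:**
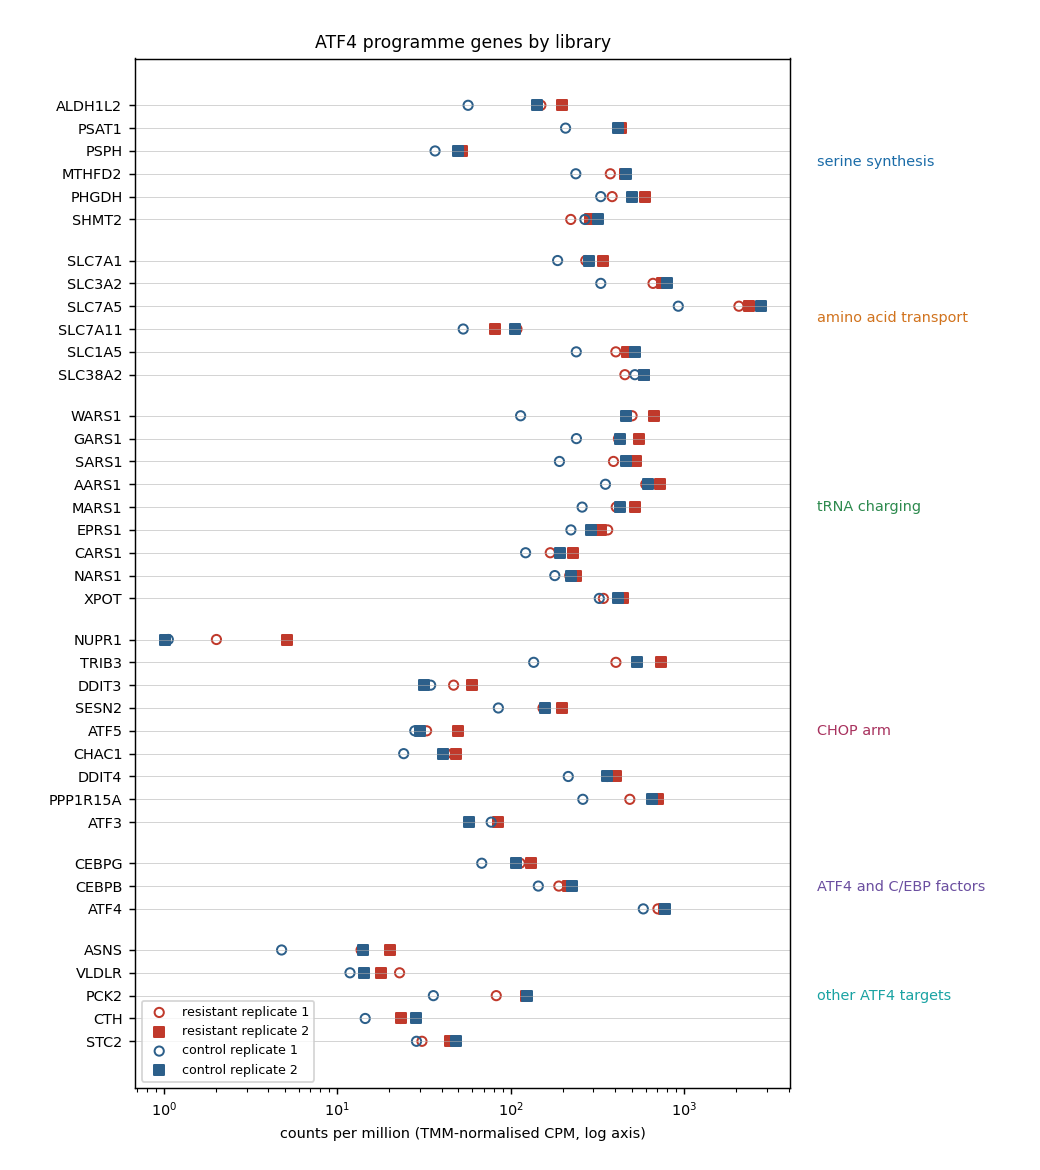
Level (TMM-normalised CPM, log axis) of the 38 genes in each library, resistant in red and control in blue, with replicate 1 as open circles and replicate 2 as filled squares, genes sorted by fold change within each role group. In 33 genes the open blue circle, control replicate 1, is the lowest point, and in 25 genes control replicate 2 lies above at least 1 resistant library.

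**Figure D2:**
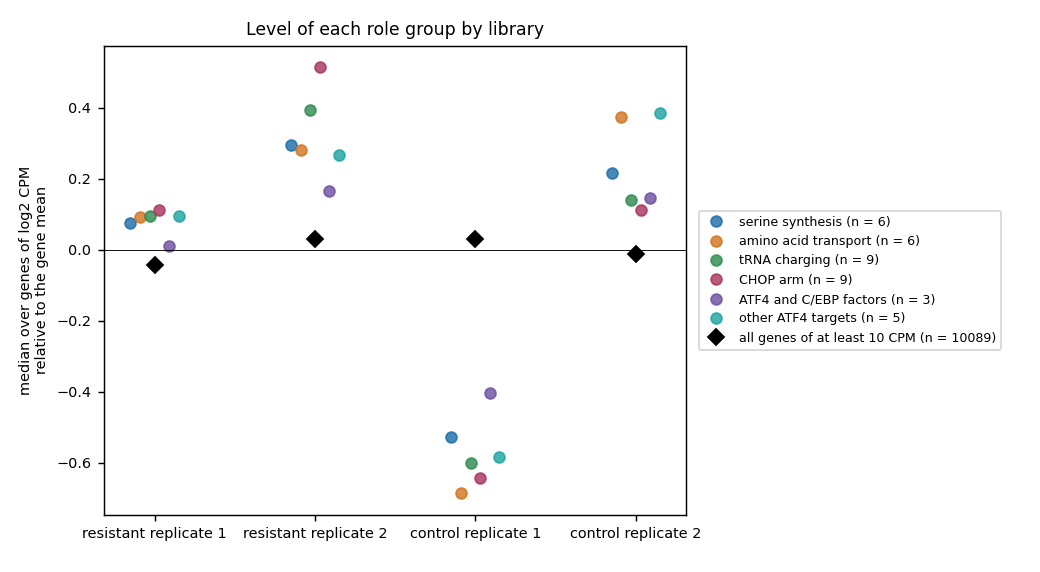
Median over the genes of each role group of log2 CPM relative to each gene's own mean over the 4 libraries. In control replicate 1 the 6 groups lie between -0.69 and -0.40, in the other 3 libraries between 0.01 and 0.51, while the median of all genes with at least 10 CPM stays between -0.04 and 0.03.

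The DNA element that ATF4 and C/EBP proteins bind is shown because it is what the programme's promoters are known to share. The genes were chosen as known genes of the programme, so a high share with the element is no independent result. RefSeq promoter windows (GRCh38.p14, 250 bases before to 50 after an annotated start) were searched for TGATGNAA and its reverse complement TTNCATCA, and no other motif was searched. A window was at hand for 33 of the 38 genes, and 12 of them (36.4%) held the element in at least 1 window, against 4.46% of 27305 genes. Counted by window, 12 of the genes' 51 windows (23.5%) held it, against 3.62% of 35116 windows. Among the lists of other pathway genes described below, the share of genes with the element ran from 7.14% (mitochondrial synthetases) to 33.3% (further stress response genes, 2 of 6). The version TGATGCAA made up 7 of the 12, TGATGAAA 3, TGATGGAA 1 and TGATGTAA 1. Each stretch below is written 5′ to 3′ on the strand that reads TGATGNAA, with those 8 bases in capitals.
CHAC1: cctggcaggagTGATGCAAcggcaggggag
AARS1: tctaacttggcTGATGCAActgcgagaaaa
CARS1: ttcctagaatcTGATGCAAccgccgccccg
MARS1: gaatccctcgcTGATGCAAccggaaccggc
NARS1: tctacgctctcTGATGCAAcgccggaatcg
SLC1A5: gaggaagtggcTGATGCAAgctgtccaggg
CEBPG: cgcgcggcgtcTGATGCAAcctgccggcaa
ASNS: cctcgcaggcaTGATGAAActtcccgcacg
GARS1: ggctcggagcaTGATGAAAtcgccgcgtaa
SLC7A1: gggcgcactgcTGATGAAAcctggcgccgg
ATF3: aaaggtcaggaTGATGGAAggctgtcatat
SLC3A2: ggagcTGATGTAAggagtcctgca

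The CHAC1 stretch is chr15:40953251-40953280 on the minus strand and that of ATF3 is chr1:212565205-212565234 on the plus strand. Among the synthetases, AARS1 is at chr16:70289675-70289704 (plus), CARS1 at chr11:3057407-3057436 (plus), GARS1 at chr7:30594834-30594863 (minus), MARS1 at chr12:57488053-57488082 (minus) and NARS1 at chr18:57621804-57621833 (minus). Among the transporters, SLC1A5 is at chr19:46784893-46784922 (minus), SLC3A2 at chr11:62881725-62881748 (minus) and SLC7A1 at chr13:29595663-29595692 (minus). CEBPG is at chr19:33374060-33374089 (plus) and ASNS at chr7:97872458-97872487 (minus). By role, the element was found in 5 of 9 tRNA charging genes, 3 of 5 transporter genes, 2 of 8 genes of the CHOP arm, 1 of 3 factors, 1 of 5 other targets and none of 3 serine synthesis genes with a window. The 12 genes with the element had a median log2 fold change of 0.41 and the 21 genes with a window but no match one of 0.39. Both resistant libraries lay above both controls in 2 of the 12 and in 7 of the 21, against the 22.4% of all genes given above. The median difference between the controls was also alike, 0.74 and 0.76 on the log2 scale, control replicate 2 over control replicate 1. A match is only a run of letters in this window, and factor binding was not measured.

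**Figure D3:**
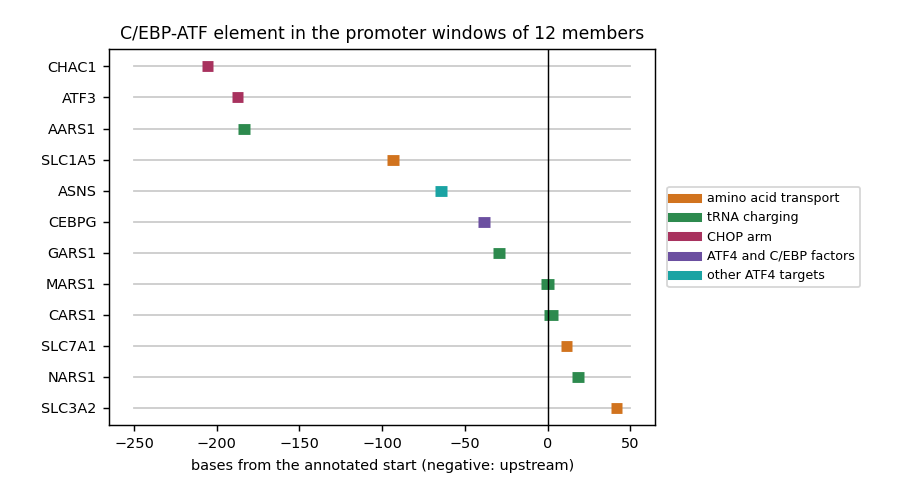
Position of the 8-base element (coloured block) relative to the annotated start in the promoter windows of 12 genes, with each window drawn in grey. The blocks begin between 209 bases upstream (CHAC1) and base 38 after the start (SLC3A2), and those of MARS1 and CARS1 span the start.

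ATF4 was among the most abundant of these transcripts per unit of length, at 1034 TPM (transcripts per 1e6 transcripts, corrected for length) in resistant cells and 937 TPM in controls, rank 94 of all genes. Its level was 706 and 761 CPM in resistant cells, against 581 and 776 CPM in controls. Control replicate 2 was the highest library and control replicate 1 the lowest, and the log2 fold change was 0.11 ± 0.20 (SE, n = 2 per group, edgeR adjusted p = 0.878). CEBPB, a C/EBP factor of inflammation and stress, had 189 and 214 CPM in resistant cells and 144 and 226 CPM in controls (edgeR adjusted p = 0.89). CEBPG, the C/EBP factor that pairs with ATF4 at amino acid genes, had 113 and 131 CPM in resistant cells and 68.1 and 108 CPM in controls, so that its groups did not overlap. Its log2 fold change was 0.48 ± 0.24 (edgeR adjusted p = 0.446), or 0.19 without control replicate 1.

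Of the 6 serine synthesis and one-carbon genes, 5 had a positive fold change, none passed the test and the median was 0.26. PHGDH, the first enzyme that draws serine from glycolysis, had 385 and 591 CPM in resistant cells and 331 and 497 CPM in controls, with replicate 2 above replicate 1 in both groups. PSAT1, the aminotransferase of the next step and the most abundant of the 6 per length (717 TPM in resistant cells, 512 TPM in controls), had 424 and 434 CPM in resistant cells and 207 and 417 CPM in controls. Control replicate 2 thus lay close to both resistant libraries. PSPH, the phosphatase of the last step, had 51.7 and 52.4 CPM in resistant cells and 36.6 and 49.8 CPM in controls. In both PSAT1 and PSPH the groups did not overlap, by a narrow margin over control replicate 2.

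In mitochondria, SHMT2 passes the serine carbon to folate, MTHFD2 oxidises the product and ALDH1L2 ends the route. ALDH1L2 had 149 and 197 CPM in resistant cells and 56.8 and 142 CPM in controls. The groups did not overlap, and its log2 fold change of 0.80 ± 0.38 was the largest of this group (edgeR adjusted p = 0.432). It was 0.29 without control replicate 1 and 1.61 without control replicate 2. SHMT2 had the lowest fold change of all 38 genes, -0.21 ± 0.20, with 222 and 286 CPM in resistant cells and 268 and 320 CPM in controls (edgeR adjusted p = 0.726). MTHFD2 had 375.4 and 457 CPM in resistant cells and 237 and 465 CPM in controls, with control replicate 2 the highest of the 4.

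In all 6 amino acid transporter genes the groups overlapped, as they did in 13829 of the 24961 genes tested. The median log2 fold change of the 6 was 0.26, 5 of 6 were positive, and without control replicate 1 the median was -0.18. SLC7A5, which encodes the light chain of the leucine transporter LAT1, was the most abundant of the 38 genes, at 1710 TPM in resistant cells and 1404 TPM in controls. It had 2069 and 2361 CPM in resistant cells, against 925 and 2761 CPM in controls, so the 2 controls bracketed both resistant libraries. Its log2 fold change was 0.27 ± 0.43 (edgeR adjusted p = 0.865), -0.32 without control replicate 1 and 1.26 without control replicate 2.

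SLC3A2 encodes the heavy chain that LAT1 shares with the cystine carrier xCT, whose light chain is SLC7A11. SLC3A2 had 662 and 743 CPM in resistant cells and 331 and 801 CPM in controls, the same order of libraries as SLC7A5 except that the spread was smaller. The ratio of SLC7A5 to SLC3A2 in TPM was 4.20 and 4.27 in resistant cells, against 3.75 and 4.62 in controls, a narrower range than that of either gene. SLC7A11 had 109 and 81.6 CPM in resistant cells and 53.2 and 106 CPM in controls. It was the sole transporter of the 6 with resistant replicate 1 above resistant replicate 2.

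The arginine carrier gene SLC7A1 had the largest fold change of the transporters, 0.38 ± 0.24 on the log2 scale (edgeR adjusted p = 0.575), with 271 and 340 CPM in resistant cells and 186 and 285 CPM in controls. SLC1A5, the gene of the glutamine exchanger ASCT2, had 404 and 467 CPM in resistant cells and 239 and 521 CPM in controls. SLC38A2, the gene of a sodium-coupled neutral amino acid carrier, had the smallest, -0.09 ± 0.19 (edgeR adjusted p = 0.909), with 456 and 586 CPM in resistant cells and 520 and 587 CPM in controls.

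All 9 tRNA charging genes had a positive fold change with all libraries, with a median of 0.44, and none passed the test. Without control replicate 1 the median was 0.09, and SARS1 (-0.01) and XPOT (-0.08) turned negative. WARS1, the tryptophanyl-tRNA synthetase, which interferon also induces, had the largest change, 501 and 670 CPM in resistant cells against 114 and 462 CPM in controls. Both resistant libraries lay above both controls, yet control replicate 2 stood 2.02 on the log2 scale above control replicate 1. Its log2 fold change was 1.03 ± 0.54 (edgeR adjusted p = 0.478), 0.35 without control replicate 1 and 2.36 without control replicate 2. Exons of WDR25 and ENSG00000258666 on the opposite strand cover 10.6% of the exonic bases of WARS1, and counts were made without regard to strand.

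EPRS1, which charges glutamate and proline, was the other synthetase whose groups did not overlap, with 363 and 331 CPM in resistant cells and 222 and 291 CPM in controls. Its log2 fold change of 0.43 ± 0.19 had an unadjusted p of 0.0564 and an edgeR adjusted p = 0.388, and it was the tRNA charging gene of the 9 with resistant replicate 1 above resistant replicate 2. SARS1, for serine, was the most abundant of the 9 per length (437 TPM in resistant cells, 307 TPM in controls), with 391 and 525 CPM in resistant cells and 191 and 461 CPM in controls. GARS1, for glycine, had 418 and 547 CPM in resistant cells and 239 and 427 CPM in controls. AARS1, for alanine, had 600 and 725 CPM in resistant cells and 352 and 623 CPM in controls. In all 3 of these synthetases resistant replicate 1 lay below control replicate 2.

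MARS1 (methionine), CARS1 (cysteine) and NARS1 (asparagine) had log2 fold changes of 0.44, 0.33 and 0.18, each with groups that overlapped. XPOT, the exporter that carries tRNA out of the nucleus, had the smallest change of the 9, 0.08 ± 0.21 (edgeR adjusted p = 0.925), with 342 and 443 CPM in resistant cells and 324 and 417 CPM in controls. Here replicate 2 exceeded replicate 1 by about the same amount in both groups (0.37 and 0.36 on the log2 scale).

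**Figure D4:**
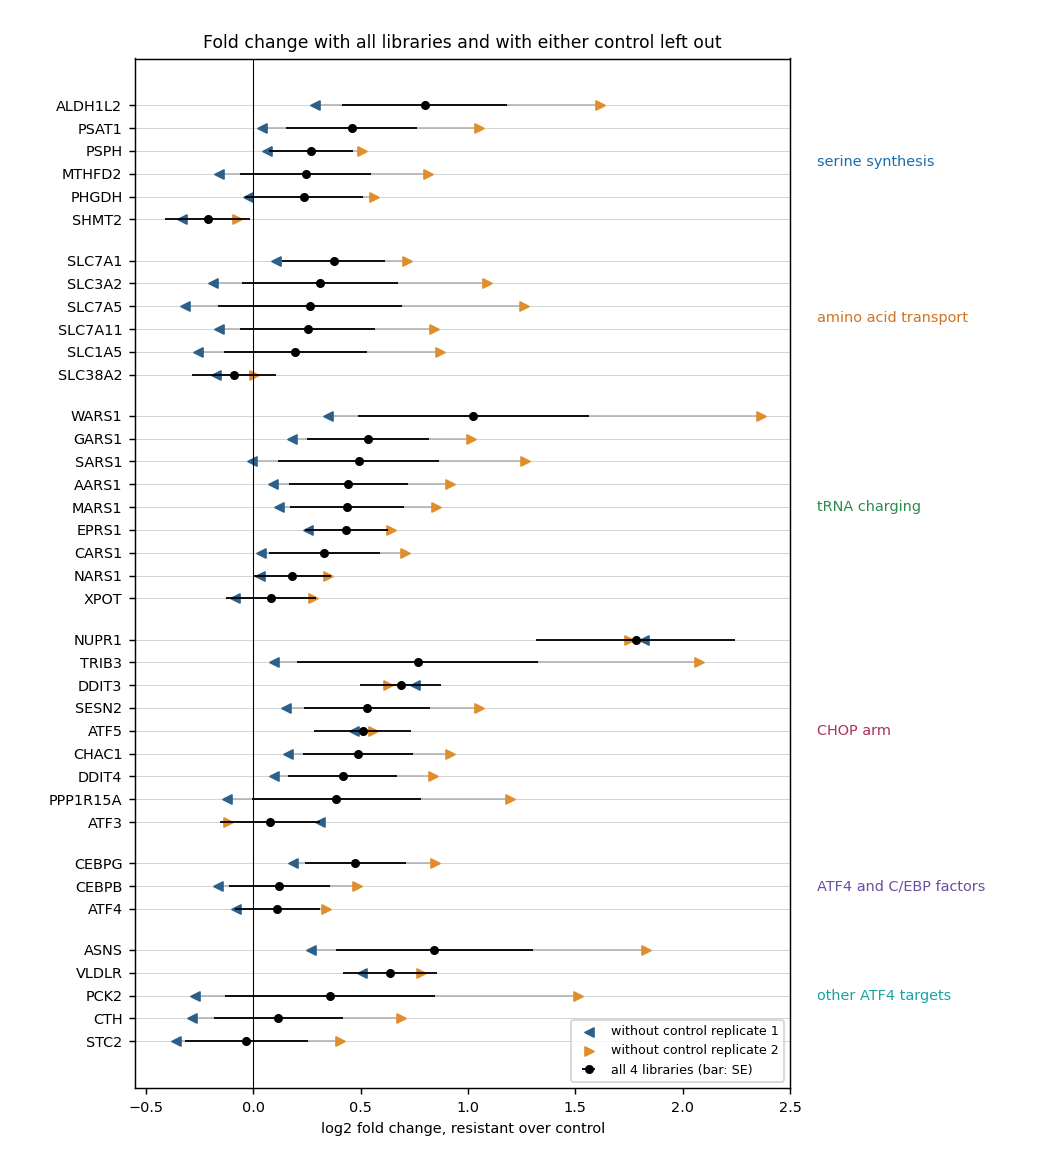
Log2 fold change (resistant over control) of the 38 genes with all 4 libraries (black, bar is the SE), without control replicate 1 (blue triangles) and without control replicate 2 (orange triangles). For most genes the blue and orange values lie far apart, WARS1 at 0.35 and 2.36. DDIT3 (0.75 and 0.63), ATF5 (0.47 and 0.56) and NUPR1 (1.82 and 1.75), with the smallest differences between controls, hardly moved. Fits without a resistant library are not drawn.

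The CHOP arm had the highest median of the role groups, 0.51, with all 9 genes positive. In 5 of 9 both resistant libraries lay above both controls, against 22.4% of all genes tested. The arm also held the 3 genes of the 38 with the smallest difference between controls, NUPR1, ATF5 and DDIT3. DDIT3 (ENSG00000175197.13, chromosome 12, 57516588 to 57521737, GRCh38), which encodes CHOP, had 46.9 and 59.8 CPM in resistant cells, against 34.5 and 31.7 CPM in controls. In CPM, the gap between the groups exceeded the spread within the controls but not that within the resistant cells. Its log2 fold change was 0.69 ± 0.19, or 1.61-fold (unadjusted p = 0.00685, edgeR adjusted p = 0.148), and ranged from 0.50 to 0.86 with 1 library left out. DDIT3 lies tail to tail with MARS1, and exons on the opposite strand, of MARS1 or MBD6, cover 31.6% of its exonic bases. Counting without strand cannot tell the reads of such bases apart, and the part of this overlap in the result was not tested.

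NUPR1 encodes a small chromatin protein of the stress response that acts with ATF4 and CHOP. It had 2.01 and 5.12 CPM in resistant cells, against 1.06 and 1.02 CPM in controls, the largest fold change of the 38 genes and their lowest level. The log2 fold change was 1.78 ± 0.46, or 3.44-fold (unadjusted p = 0.00529, edgeR adjusted p = 0.132; DESeq2 adjusted p = 0.00478; range over all alternatives 0.000223 to 0.629). It was 0.95 without resistant replicate 2 and 2.31 without resistant replicate 1, so its size turned on resistant replicate 2. ATF5, an ATF4 relative that is likewise translated better under stress, had 32.7 and 49.5 CPM in resistant cells and 28.0 and 29.8 CPM in controls (log2 0.51 ± 0.23, edgeR adjusted p = 0.384). The log2 fold change of ATF5 was 0.18 without resistant replicate 2 and 0.79 without resistant replicate 1. Opposite-strand exons of IL4I1 and NUP62 cover 19.5% of ATF5.

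TRIB3, a pseudokinase that dampens AKT and ATF4 itself, had controls that lay far apart. It had 404 and 737 CPM in resistant cells and 136 and 535 CPM in controls, and its log2 fold change of 0.77 ± 0.56 (edgeR adjusted p = 0.637) was 0.10 without control replicate 1 and 2.08 without control replicate 2. CHAC1, which breaks down glutathione, had 42.6 and 48.4 CPM in resistant cells and 24.2 and 40.8 CPM in controls. The groups did not overlap, and on the log2 scale it differed by 0.49 ± 0.26 (edgeR adjusted p = 0.479). DDIT4 (REDD1), which restrains mTORC1 and was the most abundant of this arm per length (665 TPM in resistant cells, 489 TPM in controls), had 360 and 405 CPM in resistant cells and 215 and 358 CPM in controls. Its groups did not overlap, by a narrow margin over control replicate 2.

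SESN2, which senses leucine and also restrains mTORC1, had 154 and 198 CPM in resistant cells and 84.9 and 158 CPM in controls. PPP1R15A (GADD34), the feedback subunit that dephosphorylates eIF2, had 486 and 705 CPM in resistant cells and 261 and 650 CPM in controls, with -0.12 as the log2 fold change without control replicate 1. ATF3, an immediate stress factor, had the smallest change of the arm, 0.08 ± 0.23 (edgeR adjusted p = 0.939). It had 57.9 and 84.1 CPM in resistant cells and 77.2 and 57.4 CPM in controls, one of 3 genes, with DDIT3 and NUPR1, in which control replicate 1 lay above control replicate 2.

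Of the 5 other targets, ASNS, which makes asparagine and is the textbook target of ATF4, had 13.7 and 20.2 CPM in resistant cells and 4.78 and 14.1 CPM in controls. Its log2 fold change of 0.84 ± 0.46 (edgeR adjusted p = 0.496) was 0.27 without control replicate 1 and 1.83 without control replicate 2. ASNS shares 49.3% of its exonic bases with a longer gene on the same strand, ENSG00000284707, and reads that fall in 2 genes are not counted under the counting program's defaults. VLDLR, a lipoprotein receptor gene that ATF4 induces, had 22.9 and 17.8 CPM in resistant cells, against 11.8 and 14.3 CPM in controls. The groups did not overlap, and the log2 fold change was 0.64 ± 0.22 (unadjusted p = 0.0205, edgeR adjusted p = 0.25).

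PCK2, the mitochondrial enzyme that feeds carbon from the citric acid cycle into serine, had 82.6 and 122 CPM in resistant cells and 35.8 and 124 CPM in controls. CTH, which makes cysteine from cystathionine, had 23.2 and 23.4 CPM in resistant cells and 14.5 and 28.4 CPM in controls, so both resistant libraries fell between the controls. STC2, a secreted stress glycoprotein and the most negative of these 5, had 30.8 and 44.8 CPM in resistant cells and 28.6 and 48.6 CPM in controls (log2 -0.03 ± 0.29, edgeR adjusted p = 0.98).

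The remaining genes of the pathway were read from lists that do not overlap with the 38. Of the 15 other cytosolic synthetase genes and scaffold genes of the synthetase complex, 13 lay above 0 in log2 fold change and 2 below, and none passed edgeR. DESeq2 called 1, QARS1, lower, where it called 631 of the 24915 genes with an adjusted p lower. The median of the 15 was 0.13, against 0.44 for the 8 synthetases among the 38. That order turned without control replicate 1, where the 15 had a median of 0.15 and the 8 one of 0.11. With 1 library left out the median of the 15 ranged from 0.02 to 0.27 and that of the 8 from 0.11 to 0.88. The controls did not separate here: control replicate 2 lay above control replicate 1 in 7 of 15, with a median difference of -0.03, against 8 of 8 and 0.78 for those 8 synthetases. FARSB, a subunit of the phenylalanine enzyme, had 74.4 and 91.7 CPM in resistant cells and 55.0 and 66.7 CPM in controls (unadjusted p = 0.0445, edgeR adjusted p = 0.353). QARS1, for glutamine, had the largest difference, 192 and 222 CPM in resistant cells against 342 and 322 CPM in controls (log2 -0.68 ± 0.17, edgeR adjusted p = 0.128; DESeq2 adjusted p = 0.0403; range over all alternatives 0.0306 to 0.533). QARS1 lies on chromosome 3 before 100 Mb, where 368 of 384 tested genes with at least 3 CPM in some library were lower in resistant cells by their fold change (median log2 -0.62).

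The 17 mitochondrial synthetase genes leaned the other way, with 13 negative and 4 positive fold changes, a median of -0.13 (-0.23 to -0.08 with 1 library left out) and none past edgeR or DESeq2. LARS2, for leucine, had 26.3 and 27.8 CPM in resistant cells and 43.1 and 33.7 CPM in controls (log2 -0.51 ± 0.19, unadjusted p = 0.0294, edgeR adjusted p = 0.293), and it lies in the same stretch of chromosome 3. YARS2, for tyrosine, had 22.7 and 23.4 CPM in resistant cells and 38.5 and 25.7 CPM in controls (log2 -0.48 ± 0.23, edgeR adjusted p = 0.423). The difference between mitochondrial and cytosolic synthetases was not tested.

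**Figure D5:**
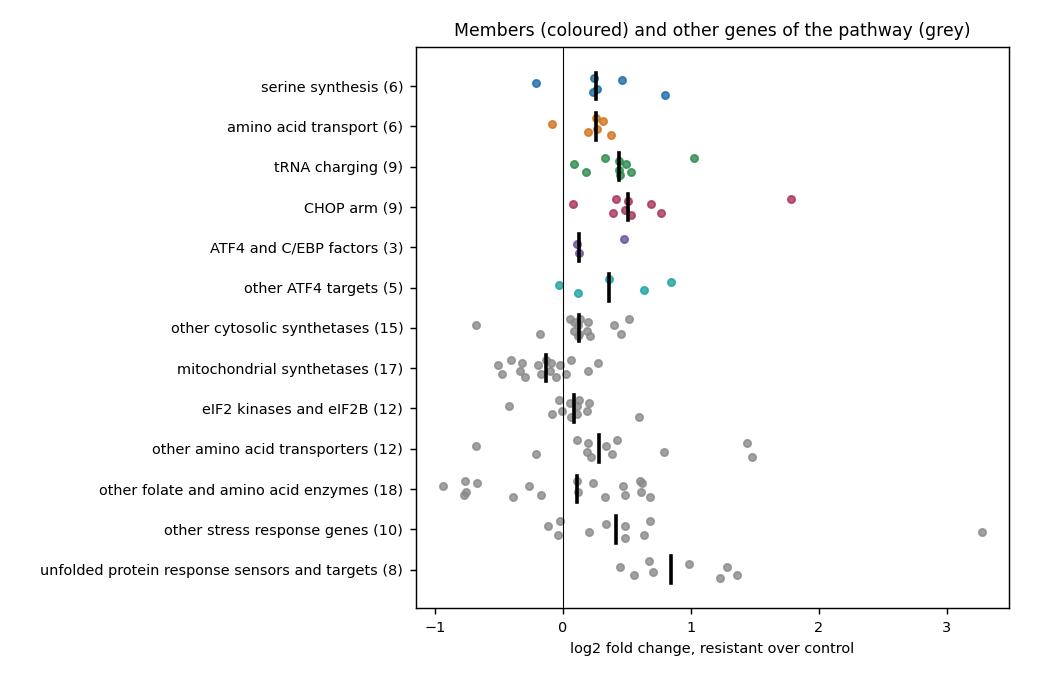
Log2 fold change (resistant over control) of each tested gene, by role group of the 38 genes (coloured) and by list of other pathway genes (grey), with the number of genes tested in parentheses and the median as a black bar. Medians run from -0.13 for mitochondrial synthetases to 0.84 for the unfolded protein response genes.

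Upstream, 12 genes covered the eIF2 kinases, GCN1, eIF2 alpha, its exchange factor eIF2B and the phosphatase subunit PPP1R15B. They had a median of 0.08 and no call by edgeR or DESeq2. The sign of that median turned with a library left out: it was -0.01 when control replicate 2 was left out and 0.14 when control replicate 1 was. EIF2AK3, the gene of the kinase PERK, which senses misfolded protein, had 23.7 and 17.4 CPM in resistant cells and 13.2 and 14.1 CPM in controls (log2 0.60 ± 0.22, unadjusted p = 0.0268, edgeR adjusted p = 0.282). EIF2AK4, the gene of GCN2, which senses uncharged tRNA, had 99.7 and 117 CPM in resistant cells and 160 and 130 CPM in controls (log2 -0.42 ± 0.18, edgeR adjusted p = 0.381). In neither kinase gene did the groups overlap.

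Of 12 other amino acid transporter genes, 10 were positive and 1 passed the test, against 50.5% and 1.09% of all genes tested. The median of the 12 was 0.28, with 0.08 without control replicate 1 and 0.69 without control replicate 2. SLC43A2, which encodes the neutral amino acid carrier LAT4, rose 2.79-fold, to 9.31 and 10.7 CPM in resistant cells, against 3.18 and 4.00 CPM in controls (log2 1.48 ± 0.25, edgeR adjusted p = 0.0471). The adjusted p was 0.0805 without resistant replicate 1, 0.24 without resistant replicate 2 and 0.0869 with the replicate number as a block, and over all alternatives it ranged from 2.19e-05 to 0.24.

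Of 19 other folate and amino acid enzyme genes, 18 could be tested, 10 were positive and 8 negative, and none passed edgeR. DESeq2 called 1, GLUL, lower, where it called 631 of the 24915 genes with an adjusted p lower. The median of the 18, 0.11, was -0.06 when resistant replicate 2 was left out and 0.31 when control replicate 2 was. Glutamine synthetase, GLUL, had the largest difference, 28.5 and 34.1 CPM in resistant cells against 68.6 and 51.3 CPM in controls (log2 -0.94 ± 0.21, edgeR adjusted p = 0.0855; DESeq2 adjusted p = 0.00587; range over all alternatives 0.000689 to 0.316).

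Of 10 further stress response genes, 7 were positive, with no call by edgeR or DESeq2. The median of 0.41 was 0.15 without resistant replicate 2, 0.23 without control replicate 1 and 0.83 without control replicate 2. GDF15, a secreted stress hormone that ATF4 and CHOP induce and p53 also controls, had 240 and 872 CPM in resistant cells, against 30.0 and 85.0 CPM in controls. The groups did not overlap, and the log2 fold change was 3.27 ± 0.67, or 9.66-fold (unadjusted p = 0.00138, edgeR adjusted p = 0.0727). With 1 library left out it ranged from 2.06 without resistant replicate 2 (adjusted p = 0.232) to 4.21 without control replicate 2, and the adjusted p was 0.0314 with the replicate block, within a range of 4.2e-47 (no filter) to 0.232 over all alternatives. KLHL24, which encodes an ubiquitin ligase adaptor, had 29.3 and 25.8 CPM in resistant cells and 18.7 and 20.6 CPM in controls (edgeR adjusted p = 0.299).

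The 8 unfolded protein response genes were all positive, and in 7 of 8 both resistant libraries lay above both controls, against 22.4% of all genes. None passed edgeR, while DESeq2 called 2 higher, HSPA5 and HERPUD1, against 2.32% of the genes to which it gave an adjusted p. The median of the 8, 0.84, was 0.52 without control replicate 1 and 1.48 without control replicate 2. HSPA5, the chaperone that holds PERK inactive, had 2143 and 1137 CPM in resistant cells and 470 and 807 CPM in controls (edgeR adjusted p = 0.132; DESeq2 adjusted p = 0.000794; range over all alternatives 1.78e-09 to 0.352). It was also called without control replicate 1 (edgeR adjusted p = 0.0283) and without control replicate 2 (0.00164). HERPUD1, of protein disposal, had 388 and 230 CPM in resistant cells and 93.1 and 171 CPM in controls (edgeR adjusted p = 0.154; DESeq2 adjusted p = 0.00321; range over all alternatives 2.03e-07 to 0.446). Resistant replicate 1 exceeded resistant replicate 2 in 6 of these 8 genes, whereas resistant replicate 2 exceeded resistant replicate 1 in 35 of the 38 genes of the ATF4 programme and in 62.9% of genes with at least 10 CPM.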

How the data were processed

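PolyA-selected, strand-specific, paired-end RNA-seq of 4 libraries was used, 2 of resistant and 2 of parental cells. The authors deposited raw counts for each gene, made with featureCounts 2.0.0 against GENCODE 42, per the file headers; the submitters' processing notes list STAR, DESeq2 and GRCh38. That header lists no strand, pair or duplicate option, so by the program's defaults strand was ignored, mates were counted singly, ambiguous reads were dropped and duplicates kept. Symbols matched by gene identifier for 62625 of 62649 identifiers. A further table without a header names no comparison and was not used here.

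Genes were filtered with filterByExpr (24961 kept), normalised by TMM and fitted in edgeR 4.0.16 in R 4.3.3 (quasi-likelihood F test, group as the sole term, two-sided, Benjamini-Hochberg over all genes). The common dispersion gave a biological coefficient of variation of 25.5%. SE was obtained as the absolute log2 fold change over the root of F. CPM are TMM-normalised. TPM used the deposited gene lengths. Over library totals, without the TMM factors, a count of 3 is 0.0441 and 0.0352 CPM in resistant replicates 1 and 2. In control replicates 1 and 2 it is 0.0415 and 0.0344 CPM. These values cover counting error only. Each count of control replicate 1 was even, so no gene had a count of 3 there. Replicates were separate libraries by their counts: chi-square over its degrees of freedom was 38.0 in resistant cells and 71.4 in controls.

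The members, role groups, lists and alternatives were chosen with earlier results of these data known. Full values are given for members with an unadjusted p under 0.05 and for the extremes and most abundant of each role group; the others were added so that each member is accounted for. From each further list the called genes, or up to 2 with the lowest p, are named; 1 gene that this rule picks is not reported here. Promoter windows are RefSeq's. File numbers of the resistant libraries differ from their labelled library numbers, and each file was taken as recorded for its sample. DESeq2 1.42.0, other scalings and filters, a replicate block, control replicate 1 halved and leaving out each library were the alternatives.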

Additional observations from a re-analysis of the deposited data

How the results depend on the processing

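Calls depended on the libraries, and on whether low counts were filtered at all, far more than on scaling. The share of all genes at an unadjusted p under 0.05 was taken in the main edgeR fit only (13.5%). The members' counts at that level in the other fits, at the end of this paragraph, thus cannot be compared with all genes. They are no evidence of a trait of the members. The count of all genes called, 272 (144 higher, 128 lower), was 1866 without a filter (905 and 961), 1210 with DESeq2 (579 and 631) and 64 with the replicate block (33 and 31). It was 225 (117 and 108) with a filter of at least 1 CPM in at least 2 libraries, where 0 members were called. With 1 library left out it ranged from 16 to 2166 (7 to 1146 higher, 9 to 1020 lower), lowest without resistant replicate 2 and highest without control replicate 2. Of the 38 members 0 were called; 6 were called without a filter, 1 with DESeq2, and 0 to 21 with 1 library left out, highest without control replicate 2. Members at an unadjusted p under 0.05, 3 in all, numbered 5 with library totals as the scale, 20 without a filter, 13 with the replicate block, 6 with DESeq2 and 1 to 30 with 1 library left out, while positive members numbered 22 to 37.

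The members' median log2 fold change ranged from 0.054 to 0.84 with 1 library left out, in each role group at its lowest without control replicate 1 and at its highest without control replicate 2: 0.0089 to 0.69 for serine synthesis, -0.18 to 0.85 for transport, 0.092 to 0.85 for tRNA charging, 0.16 to 0.92 for the CHOP arm, -0.079 to 0.49 for the factors and -0.27 to 0.78 for other targets. Members whose sign turned with a library left out ranged from -0.11 to 0.56 (PHGDH), -0.16 to 0.81 (MTHFD2), -0.16 to 0.84 (SLC7A11), -0.32 to 1.26 (SLC7A5), -0.19 to 1.09 (SLC3A2), -0.26 to 0.87 (SLC1A5), -0.28 to 0.090 (SLC38A2), -0.0055 to 1.27 (SARS1), -0.11 to 0.28 (XPOT), -0.12 to 1.20 (PPP1R15A), -0.21 to 0.33 (ATF3), -0.079 to 0.34 (ATF4), -0.16 to 0.49 (CEBPB), -0.29 to 0.69 (CTH), -0.27 to 1.51 (PCK2) and -0.36 to 0.40 (STC2). No other alternative turned a member's sign. In the other lists 1 gene was called, 18 without a filter, 5 with DESeq2 and 0 to 24 with 1 library left out. The cause was not tested; a fit without a library has fewer residual degrees of freedom and takes its spread from the other group.

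The labels give same-numbered replicates only a shared number. The correlation of their deviations from the group means was 0.002 over 10089 genes. With 2 libraries per group this cannot decide whether they were paired. Replicate 2 lay above replicate 1 in 35 of the 38 members in controls and in 35 in resistant cells. The replicate block is thus an alternative and not a known pairing. Of the 38 members 37 averaged at least 10 CPM, so counting error is small beside the spread between libraries; NUPR1, at 1.02 to 5.12 CPM, was the exception.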
